A study of Mus musculus with 8 samples.

Results

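The potassium channel genes of the mouse were taken as all protein-coding genes whose symbol starts with Kcn, 94 in all. A gene was kept where its level reached 1 FPKM (fragments counted per length of transcript and scaled for the depth of the library) in at least 2 of the 8 libraries, which 64 of the 94 did. These 64 were 31 of 40 voltage-gated genes (Kcna to Kcnd, Kcnf to Kcnh, Kcnq, Kcns and Kcnv), 9 of 15 inward rectifiers (Kcnj), 6 of 14 two-pore channels (Kcnk), 9 of 12 calcium- or sodium-activated genes (Kcnm, Kcnn, Kcnt and Kcnu) and 9 of 13 accessory subunits (Kcnab, Kcne, Kcnip and Kcnrg).

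Potassium channels let potassium leave the cell and so set the resting potential of a neuron, end its action potentials and limit how fast it fires again. Voltage-gated channels are tetramers of related subunits, some of which form no channel alone and only modify others, and the cytosolic Kcnab and Kcnip proteins alter their gating and transport. Inward rectifiers and two-pore channels carry current near rest, with Kcnj3, Kcnj6 and Kcnj9 opened by G protein-coupled receptors, and the Kcnma and Kcnn channels open when calcium enters during firing.

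The libraries came from cortical neurons of the mouse grown in culture, 2 biological replicates in each of 4 groups named Control, Control_KCl, Rem2 KO and Rem2 KO_KCl. Neurons taken from cortex at embryonic day 16.5 were kept in culture for 6 days, and from day 5 all groups had 1 µM tetrodotoxin overnight, which blocks sodium channels and silences firing. The groups named KCl were then held in 55 mM KCl for 4 h, which depolarises the membrane. The genotype label reads Rem2 flx/flx in all 8 libraries, Control included, so the knockout rests on the group name, and the source of Cre, the exons removed and the ages of single cultures are not given in the sources used here. Rem2 is a small GTPase of the RGK family that binds calcium channels, and the questions were how depolarisation and Rem2 affect gene expression.

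Rem2 itself was at 6.29 and 2.54 FPKM in Control, 2.13 and 1.70 FPKM in Rem2 KO, 22.5 and 21.4 FPKM in Control_KCl and 11.7 and 12.4 FPKM in Rem2 KO_KCl. Its level in Rem2 KO was below that in Control in 4 of 4 pairs of libraries with the same replicate number but was not absent, and its difference averaged over both KCl states was -0.81 ± 0.23 (SE) on the log2(FPKM + 1) scale (limma adjusted p = 1.00, unadjusted p = 0.0127). By an estimate from the spacing of low values, libraries numbered 1 held about 20200000 to 21800000 fragments and those numbered 2 about 38700000 to 46400000. The replicate number separated the libraries on the first principal component (49.0% of the variance) and KCl on the second (32.5%). Summed levels of 6 depolarisation genes were 32.9 to 44.9 FPKM without KCl and 361 to 433 FPKM with KCl. Fos (6.18 to 8.87 against 154 to 179 FPKM), Npas4, Nr4a1 and Bdnf carried most of this difference. Arc differed less (0.759 to 1.83 against 1.87 to 2.84 FPKM), and Egr1 overlapped (16.9 to 25.1 against 15.6 to 26.0 FPKM). All 5 general neuron markers were present, at summed levels of 1407 to 1687 FPKM without and 1192 to 1353 FPKM with KCl. Tubb3 alone carried the lower sum (978 to 1172 against 647 to 728 FPKM). Snap25 was higher with KCl (91.3 to 112 against 177 to 199 FPKM), and Map2, Rbfox3 and Syt1 overlapped. The 5 excitatory neuron markers (277 to 362 against 464 to 611 FPKM) and the 6 interneuron markers (182 to 218 against 354 to 420 FPKM) had higher sums with KCl. Gad1 carried most of the interneuron difference (45.8 to 56.0 against 176 to 211 FPKM) and Neurod6 most of the excitatory one (160 to 243 against 306 to 430 FPKM), whereas Lhx6 was lower with KCl (27.3 to 40.4 against 17.3 to 25.9 FPKM) and Slc17a7 overlapped (12.7 to 19.6 against 12.8 to 20.7 FPKM), and the part of this in the results on the channels was not tested. All 7 markers of the oligodendrocyte lineage (295 to 416 against 355 to 471 FPKM), 6 of 6 astrocyte markers (289 to 427 against 268 to 368 FPKM) and 7 of 7 endothelial and mural markers (30.1 to 94.8 against 34.7 to 80.9 FPKM) were also present, while 3 of 6 microglial markers reached 1 FPKM (1.17 to 4.96 against 1.30 to 4.05 FPKM) and Tmem119 was at 0 in 3 libraries. Acta2 carried most of the spread of the endothelial and mural sum, at 3.67 to 6.37 FPKM in libraries numbered 1 and 49.8 to 79.0 FPKM in those numbered 2. Cldn5, Pecam1 and Cdh5 were lower in libraries numbered 2, and Kdr, Pdgfrb and Rgs5 overlapped. In bulk RNA, fewer cells of a type and less RNA per cell cannot be told apart.

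In level, the calcium-activated channel subunit Kcnmb4, a beta subunit of the large-conductance (BK) channel that is enriched in neurons, came first with a mean of 38.0 FPKM over the 8 libraries. Kcne1l, a single-pass accessory subunit, was also high at 30.1 FPKM. Kcnip2, Kcnip3, Kcnk2, Kcnd3, Kcnj4 and Kcnf1 had means of 25.3, 20.6, 18.6, 18.1, 17.5 and 16.2 FPKM. The order within this group of 6 does not hold up against the spread, since Kcnip2, Kcnj4 and Kcnf1 changed with KCl. At the low end Kcnj12, Kcnh8 and Kcns1 had means of 0.756, 0.793 and 1.05 FPKM. At the edge of the filter, Kcnh8, Kcnrg and Kcnj12 had second-highest values of 1.08, 1.29 and 1.29 FPKM, and Kcne3, Kcna5 and Kcnk4, which were left out, had 0.954, 0.758 and 0.661 FPKM. The 30 genes left out included Kcnq1 and Kcnk16, listed at 0 throughout, and Kcnj5, a G protein-gated rectifier of the heart, which did not exceed 0.0402 FPKM.

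After 4 h of KCl, averaged over both genotypes, 14 of the 64 genes rose and 22 fell at a limma adjusted p below 0.05, against 33.4% of all 13089 genes tested (10.5% rises and 22.9% falls). Large rises were those of Kcnj4, Kcna1, Kcnj3, Kcnf1 and Kcna4, and large falls those of Kcng1, Kcnh2, Kcnc2, Kcnd1 and Kcns1. Kcnh3 fell too, by an estimate that rests on zeros in 2 libraries. Voltage-gated genes had 8 rises and 12 falls of 31, inward rectifiers 4 and 2 of 9, two-pore channels 1 and 0 of 6, calcium- or sodium-activated genes 0 and 4 of 9, and accessory subunits 1 and 4 of 9. The median change was -0.17 on the log2(FPKM + 1) scale over the 64 genes and -0.13 over all genes tested. Median changes by class were -0.29 for voltage-gated, 0.39 for inward rectifier, 0.13 for two-pore, -0.35 for calcium- or sodium-activated and -0.14 for accessory genes. Other scalings move the median of all genes from -0.13 to between -0.09 (upper quartile) and 0.01 (TMM-type), so for Kcn genes that passed with changes under 0.5 in size the change relative to that median is also given below. Under quantile normalization 15 genes rose and 13 fell (33.8% of all genes changed, 15.0% rose and 18.8% fell), and 27 of the 28 were among the 36. With the replicate number as a block 19 rose and 32 fell (62.0% of all genes changed, 20.2% rose and 41.8% fell). Without Control_KCl replicate 1 or without Control_KCl replicate 2 the count was 23.

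Leaving out each of the 8 libraries in turn kept 20 of the 36 genes past the threshold throughout, among them Kcnj4, Kcna1, Kcnj3, Kcnf1 and Kcna4 of the rises and Kcng1, Kcnh2, Kcnc2 and Kcnd1 of the falls. Kcnip1 and Kcns1 lost the call without Control_KCl replicate 1 (adjusted p = 0.05001 and 0.0503, limma), Kcnj12 without Control_KCl replicate 2 (0.0554) and Kcnk3 without Control_KCl replicate 2 or Rem2 KO_KCl replicate 1 (up to 0.0546). Further genes, among them Kcnb2, Kcnc1, Kcnh3, Kcnip3, Kcnj2, Kcnj9, Kcnmb4, Kcnq3, Kcns2, Kcnt2 and Kcnu1, lost it in 4 to 7 of the 8 fits, with adjusted p-values of up to 0.145 (Kcnt2), so their calls rest on all libraries together. No gene changed direction, which largely follows from their calls on these same libraries. All values below are on the log2(FPKM + 1) scale, with the standard error of limma, and adjusted over all genes. This scale understates the change of genes at low level, so folds of mean FPKM, 4 libraries against 4, are given beside it.

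**Figure D1:**
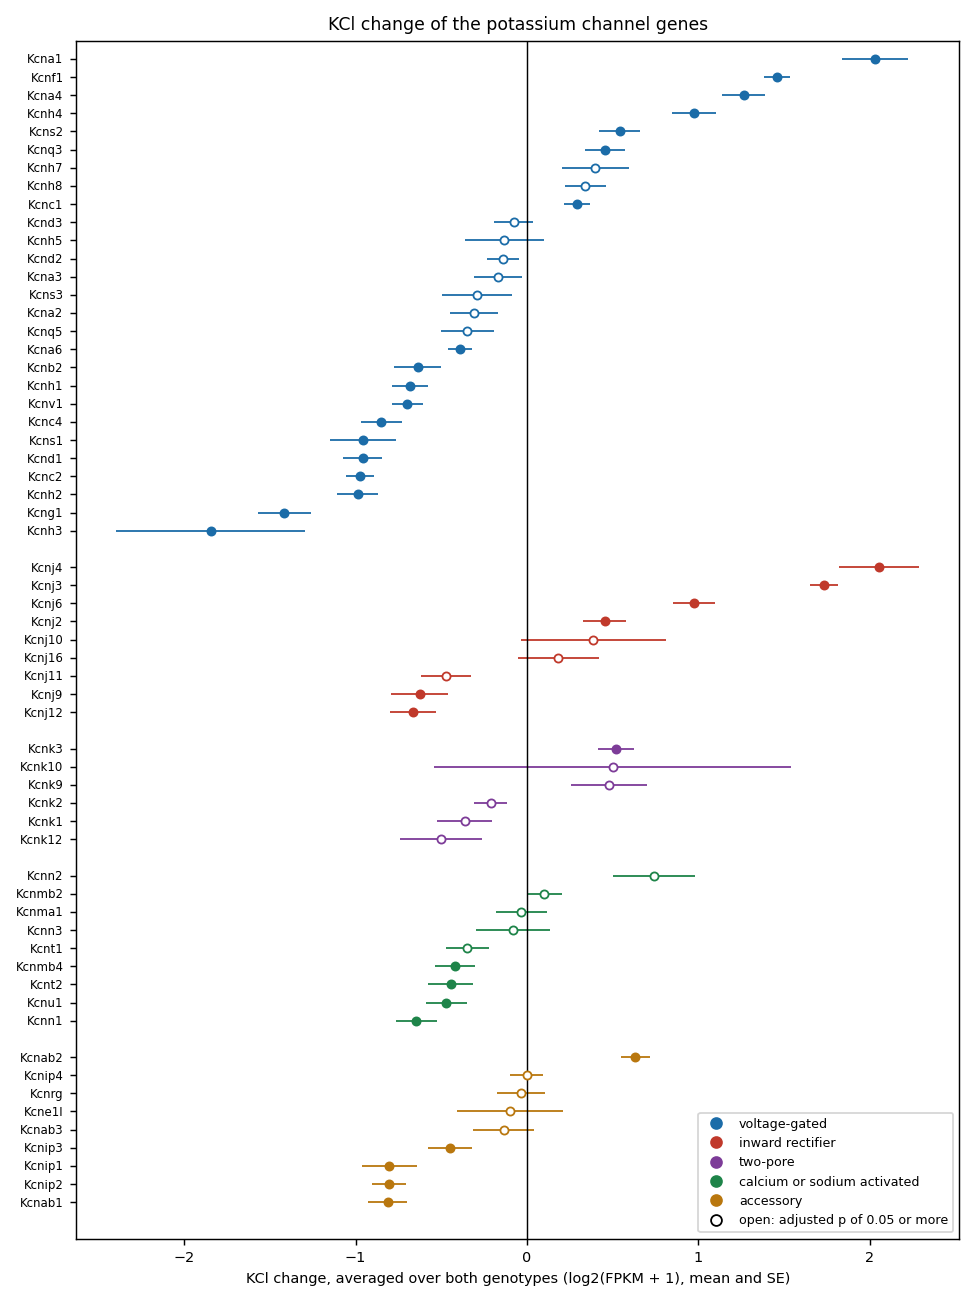
KCl change of 60 of the 64 genes, averaged over both genotypes, on the log2(FPKM + 1) scale (x axis; points are estimates and bars standard errors, filled where adjusted p is below 0.05), grouped by class. Kcnj4 and Kcna1 lie farthest to the right at 2.06 and 2.03, Kcng1 and Kcnh3 farthest to the left at -1.42 and -1.85, and the bars of Kcnh3 and Kcnk10, each listed at 0 in some libraries, are the widest.

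For 45 of the 64 genes RefSeq (GRCm38.p6) gave 1 or more promoter windows, here the 250 bases before a start site. The cAMP response element TGACGTCA, the site of the activity-regulated factor CREB, was in none of the 45, against 1.77% of all genes with a window and 3.19% of the genes tested here, and its core TGACG, which the full site contains, was in 9 (20.0%, against 19.8% of all genes and 31.0% of the genes tested here), counting both strands. The 9 were 3 of 9 genes that rose, 4 of 15 that fell and 2 of 21 that did neither. AP-1 sites TGANTCA were in Kcnip3, Kcnip4 and Kcnk2 (6.67% of the 45, against 7.82% of all genes and 4.97% of the genes tested), and the EGR site GCGTGGGCG and the CArG box in none (0.622% and 1.62% of all genes, 1.26% and 1.46% of the genes tested). A match describes letters in the window and is not a measured binding site. Windows of 4 genes are shown, the risers Kcnj4 and Kcnab2 with a core match, the riser Kcnf1 without one and the faller Kcnc4 with one, each 5′ to 3′ on the strand of the gene, with core matches on either strand in capitals.
Kcnj4, chr15:79505242-79505491, minus strand, core match at -167 from the start: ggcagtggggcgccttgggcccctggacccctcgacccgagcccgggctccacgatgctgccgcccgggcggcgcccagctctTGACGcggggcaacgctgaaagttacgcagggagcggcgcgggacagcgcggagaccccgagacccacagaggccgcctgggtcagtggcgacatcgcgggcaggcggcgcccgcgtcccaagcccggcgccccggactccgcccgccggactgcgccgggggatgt
Kcnab2, chr4:152477550-152477799, minus strand, core matches at -175 and -164: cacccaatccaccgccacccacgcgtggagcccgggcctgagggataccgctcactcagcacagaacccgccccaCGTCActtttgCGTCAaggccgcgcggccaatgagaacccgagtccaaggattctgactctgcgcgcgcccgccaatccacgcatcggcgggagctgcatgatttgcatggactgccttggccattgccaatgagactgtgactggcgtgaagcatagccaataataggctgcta
Kcnf1, chr12:17176889-17177138, minus strand: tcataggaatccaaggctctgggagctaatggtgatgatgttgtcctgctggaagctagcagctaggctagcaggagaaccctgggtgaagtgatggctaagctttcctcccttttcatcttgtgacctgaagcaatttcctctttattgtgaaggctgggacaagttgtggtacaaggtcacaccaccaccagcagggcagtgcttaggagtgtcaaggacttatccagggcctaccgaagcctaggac
Kcnc4, chr3:107458899-107459148, minus strand, core match at -64: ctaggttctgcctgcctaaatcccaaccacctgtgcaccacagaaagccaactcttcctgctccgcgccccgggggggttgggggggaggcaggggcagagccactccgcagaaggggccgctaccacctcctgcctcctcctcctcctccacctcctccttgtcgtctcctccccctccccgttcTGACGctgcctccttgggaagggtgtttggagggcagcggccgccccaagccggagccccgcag
The window of Kcnj4 was 77.2% G or C and that of Kcnc4 68.0%, against 61.2% for Kcnab2 and 51.2% for Kcnf1. Core matches thus stood both before genes that rose and before genes that fell.

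Of the inward rectifiers 4 rose and 2 fell. Kcnj4 (chr15:79480226-79512511 in mm10), a strongly rectifying channel of neurons, was at 9.37 and 4.92 FPKM in Control, 6.95 and 4.20 FPKM in Rem2 KO, 28.9 and 25.2 FPKM in Control_KCl and 34.6 and 26.2 FPKM in Rem2 KO_KCl. Every KCl library was above every library without KCl, and replicate 1 was above replicate 2 in all 4 groups. Its mean rose 4.51-fold (log2 change 2.06 ± 0.23 (SE), adjusted p = 0.00214). Kcnj2, a channel of the same strongly rectifying kind, rose from 4.73 ± 0.869 to 6.80 ± 0.640 FPKM (mean ± SD, n = 4; 0.45 ± 0.13 (SE), adjusted p = 0.0398; 0.58 relative to the median gene). Kcnj12, another member of that kind, fell from 1.15 ± 0.179 to 0.357 ± 0.0798 FPKM (-0.66 ± 0.13 (SE), adjusted p = 0.0130), though not under quantile normalization (adjusted p = 0.118). The 3 strong rectifiers thus moved in both directions. With KCl, Kcnj4 was above Kcnj2 and Kcnj12 in all 4 libraries, and without KCl Kcnj2 was above Kcnj4 in both libraries numbered 2.

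Of the G protein-gated channel subunits, which slow firing when GABA-B and similar receptors are active, Kcnj3 (chr2:55411798-55598145) was at 5.22 and 5.21 FPKM in Control, 4.01 and 4.06 FPKM in Rem2 KO, 19.5 and 19.5 FPKM in Control_KCl and 17.2 and 14.7 FPKM in Rem2 KO_KCl. The 4 KCl libraries stood well apart from the other 4, and Rem2 KO was a little below Control in all 4 pairs. The mean rose 3.83-fold (1.73 ± 0.08 (SE), adjusted p = 0.000279). Kcnj6 was at 1.14 and 1.33 FPKM in Control, 0.845 and 1.04 FPKM in Rem2 KO, 2.59 and 3.30 FPKM in Control_KCl and 3.04 and 3.49 FPKM in Rem2 KO_KCl. It rose 2.86-fold (0.98 ± 0.12 (SE), adjusted p = 0.00287), with no overlap between KCl states. Kcnj9, the third subunit, went the other way, from 2.77 ± 0.675 to 1.42 ± 0.289 FPKM (-0.63 ± 0.17 (SE), adjusted p = 0.0348, and adjusted p = 0.315 under quantile normalization). Of the summed level of these 3 subunits, Kcnj9 made up 27.4% to 37.7% without KCl and 5.0% to 7.4% with KCl, and Kcnj3 51.5% to 57.9% and 75.9% to 81.7%. The summed level went from 7.0 to 9.9 FPKM to 19.3 to 24.0 FPKM.

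The remaining rectifiers did not pass the test. Kcnj10, the main rectifier of astrocytes, was at 8.47 and 17.2 FPKM in Control, 8.74 and 18.7 FPKM in Rem2 KO, 11.6 and 23.6 FPKM in Control_KCl and 10.8 and 25.3 FPKM in Rem2 KO_KCl. Every library numbered 2 was above every library numbered 1 (mean log2 difference 1.02), while the KCl states overlapped, and its change of 0.39 ± 0.42 had adjusted p = 0.553, or 0.00122 with the replicate number as a block. Kcnj16, which joins Kcnj10 in one channel, was at 0.637 to 1.73 FPKM (log2 change 0.18, adjusted p = 0.624, block 0.0930). Kcnj11, the pore of the ATP-sensitive channel, was at 3.24 and 2.13 FPKM in Control, 2.39 and 2.31 FPKM in Rem2 KO, 1.40 and 1.52 FPKM in Control_KCl and 1.35 and 1.81 FPKM in Rem2 KO_KCl. All 4 KCl values were the lower ones, at adjusted p = 0.0512 and 0.0140 with the block. Summed over all 9 genes, the rectifiers came to 32.5 to 41.5 FPKM without KCl and 73.2 to 82.4 FPKM with KCl.

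**Figure D2:**
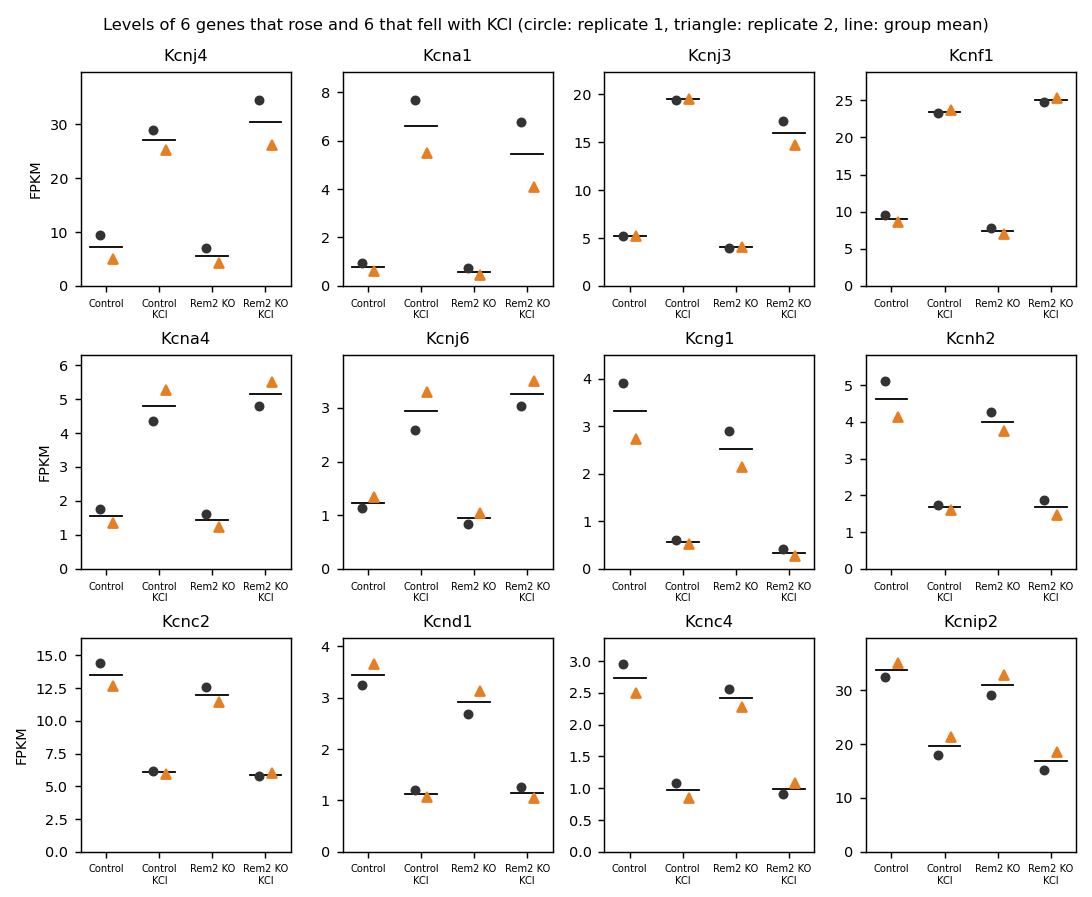
FPKM in each library (y axis, from 0) for 6 genes that rose and 6 that fell with KCl, by group; circles are replicate 1, triangles replicate 2 and lines group means. In each panel the 4 KCl values lie on one side of the 4 others, from Kcnj4 (4.20 to 9.37 against 25.2 to 34.6 FPKM) to Kcnip2 (29.1 to 35.1 against 15.1 to 21.2 FPKM). The genes were picked from those called on these same values. Of all genes tested, 12.8% lay apart in this way with KCl higher and 27.9% with KCl lower.

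Among the Kcna (Kv1) channels, low-threshold channels found largely on axons, Kcna1 rose and Kcna6 fell. Kcna1 (chr6:126636463-126645801) was at 0.955 and 0.620 FPKM in Control, 0.731 and 0.451 FPKM in Rem2 KO, 7.67 and 5.499 FPKM in Control_KCl and 6.77 and 4.09 FPKM in Rem2 KO_KCl. All values without KCl were under 1 FPKM and all with KCl above 4, and the mean rose 8.72-fold (2.03 ± 0.19 (SE), adjusted p = 0.00137). Kcna4, whose channels inactivate fast and give an A-type current, was at 1.78 and 1.34 FPKM in Control, 1.61 and 1.25 FPKM in Rem2 KO, 4.36 and 5.26 FPKM in Control_KCl and 4.81 and 5.51 FPKM in Rem2 KO_KCl, with no overlap (3.34-fold, 1.26 ± 0.13 (SE), adjusted p = 0.00152). Kcna6, the most abundant of the family in every library, fell from 15.5 ± 0.747 to 11.6 ± 0.335 FPKM (-0.39 ± 0.07 (SE), adjusted p = 0.00867; -0.27 relative to the median gene). Kcna1 and Kcna6 lie 62527 bases apart on chromosome 6. Kcna2 and Kcna3, neighbours on chromosome 3 at a distance of 52754 bases, did not pass (log2 changes -0.31 and -0.17, adjusted p = 0.151 and 0.425, and 0.0103 for Kcna2 with the block). The summed level of the family stayed at 26.8 to 31.7 FPKM without KCl and 31.3 to 33.6 FPKM with it. Within that sum Kcna1 went from 1.4% to 3.6% to 13.1% to 22.8%, Kcna4 from 3.9% to 6.6% to 12.9% to 17.6%, and Kcna6 from 50.7% to 55.1% to 33.7% to 38.0%.

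Among the Kcnc (Kv3) channels, which repolarise fast and allow high firing rates, genes moved in both directions. Kcnc1 rose from 12.03 ± 0.810 to 14.9 ± 0.0839 FPKM (0.29 ± 0.08 (SE), adjusted p = 0.0304; 0.42 relative to the median gene). Kcnc2 was at 14.4 and 12.7 FPKM in Control, 12.6 and 11.4 FPKM in Rem2 KO, 6.21 and 5.96 FPKM in Control_KCl and 5.76 and 6.05 FPKM in Rem2 KO_KCl. All KCl values were under 6.5 FPKM and all others above 11, a 2.13-fold fall (-0.97 ± 0.08 (SE), adjusted p = 0.00108). Kcnc4 was at 2.95 and 2.50 FPKM in Control, 2.56 and 2.27 FPKM in Rem2 KO, 1.09 and 0.844 FPKM in Control_KCl and 0.902 and 1.08 FPKM in Rem2 KO_KCl, also without overlap (2.63-fold lower, -0.85 ± 0.12 (SE), adjusted p = 0.00408).

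**Figure D3:**
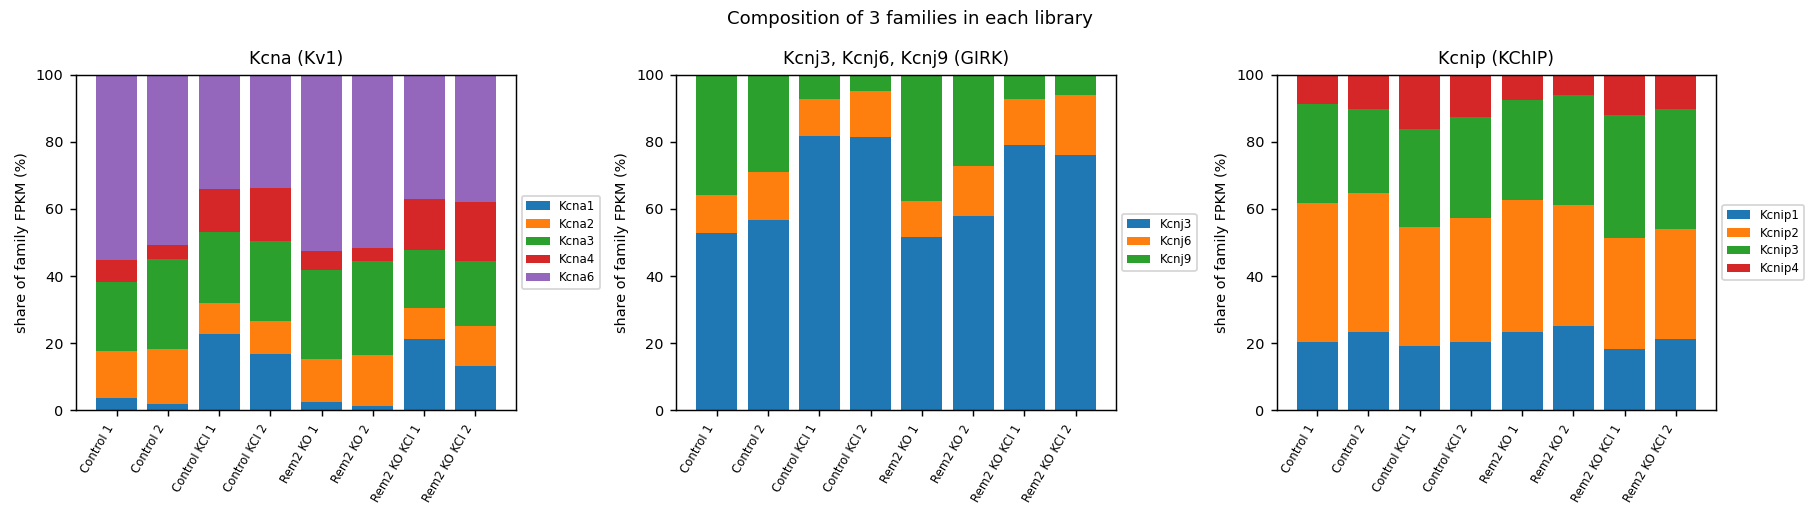
Share of each gene (y axis, % of the family's summed FPKM) in each library for the Kcna and Kcnip families and the 3 G protein-gated subunits Kcnj3, Kcnj6 and Kcnj9. In the Kcna and Kcnj panels the 4 KCl bars differ from the 4 others, with Kcnj9 at 5.0% to 7.4% against 27.4% to 37.7%, while the Kcnip shares differ less.

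The Kcnd (Kv4) channels carry the dendritic A-type current, and the Kcnip proteins (KChIPs) are calcium-binding subunits that bring them to the membrane. Kcnd1, the least abundant pore subunit, was at 3.24 and 3.65 FPKM in Control, 2.69 and 3.13 FPKM in Rem2 KO, 1.201 and 1.07 FPKM in Control_KCl and 1.26 and 1.04 FPKM in Rem2 KO_KCl. It fell 2.78-fold with no overlap (-0.96 ± 0.11 (SE), adjusted p = 0.00234). Kcnd2 and Kcnd3, at 10.9 and 18.1 FPKM on average, had log2 changes of -0.14 ± 0.09 and -0.08 ± 0.11 (adjusted p = 0.325 and 0.667), both near the median of all genes. Of the 4 Kcnip genes 3 fell. Kcnip2 was at 32.4 and 35.1 FPKM in Control, 29.1 and 32.9 FPKM in Rem2 KO, 17.9 and 21.2 FPKM in Control_KCl and 15.1 and 18.5 FPKM in Rem2 KO_KCl. It was lower in every KCl library (1.78-fold, -0.80 ± 0.10 (SE), adjusted p = 0.00283). Kcnip1 was at 15.8 and 19.6 FPKM in Control, 17.3 and 23.2 FPKM in Rem2 KO, 9.66 and 11.8 FPKM in Control_KCl and 8.39 and 11.9 FPKM in Rem2 KO_KCl, with replicate 2 above replicate 1 in all groups and no overlap between KCl states (-0.80 ± 0.16 (SE), adjusted p = 0.0130). Kcnip3, also known as the transcriptional repressor DREAM, fell from 24.0 ± 4.07 to 17.2 ± 2.24 FPKM (-0.45 ± 0.13 (SE), adjusted p = 0.0405; -0.32 relative to the median gene). Kcnip4 did not pass (-0.00 ± 0.10, adjusted p = 0.994). The summed Kcnip level was 74.0 to 91.8 FPKM without and 45.9 to 57.7 FPKM with KCl, while the summed Kcnd level was 29.6 to 37.9 and 27.1 to 31.7 FPKM.

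Kcnb2, a Kv2 delayed rectifier subunit, fell from 1.68 ± 0.337 to 0.714 ± 0.0791 FPKM (-0.64 ± 0.14 (SE), adjusted p = 0.0167), though not under quantile normalization (adjusted p = 0.0745). Of the 6 silent subunits kept, which form no channel alone and assemble with Kcnb subunits, 2 rose and 3 fell. Kcnf1 (chr12:17172100-17176888), the most abundant of them with KCl, was at 9.54 and 8.61 FPKM in Control, 7.82 and 6.95 FPKM in Rem2 KO, 23.4 and 23.6 FPKM in Control_KCl and 24.7 and 25.3 FPKM in Rem2 KO_KCl. The states were far apart and the replicates close, and the mean rose 2.95-fold (1.46 ± 0.07 (SE), adjusted p = 0.000389). Kcns2 was at 1.59 and 1.83 FPKM in Control, 1.08 and 1.31 FPKM in Rem2 KO, 2.46 and 3.03 FPKM in Control_KCl and 2.20 and 2.54 FPKM in Rem2 KO_KCl (1.76-fold higher, 0.54 ± 0.12 (SE), adjusted p = 0.0181), again without overlap. Kcng1 was at 3.91 and 2.73 FPKM in Control, 2.90 and 2.14 FPKM in Rem2 KO, 0.603 and 0.530 FPKM in Control_KCl and 0.425 and 0.265 FPKM in Rem2 KO_KCl. All KCl values were under 0.7 FPKM and all others above 2, a 6.40-fold fall (-1.42 ± 0.15 (SE), adjusted p = 0.00184). Kcns1 was at 2.47 and 1.24 FPKM in Control, 1.70 and 1.44 FPKM in Rem2 KO, 0.245 and 0.283 FPKM in Control_KCl and 0.724 and 0.315 FPKM in Rem2 KO_KCl, with the lowest value without KCl at 1.24 and the highest with KCl at 0.724 FPKM (-0.96 ± 0.19 (SE), adjusted p = 0.0134, and 0.0713 under quantile normalization). Kcnv1 was at 10.1 and 11.02 FPKM in Control, 7.57 and 6.57 FPKM in Rem2 KO, 5.18 and 5.72 FPKM in Control_KCl and 4.41 and 4.55 FPKM in Rem2 KO_KCl. It fell 1.78-fold (-0.70 ± 0.09 (SE), adjusted p = 0.00301). Kcns3 did not pass (adjusted p = 0.332, and 0.0178 with the block). Kcnf1 made up 31.5% to 35.5% of the summed level of the silent subunits without KCl and 68.4% to 74.8% with KCl.

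The Kcnh genes encode the EAG, ERG and ELK channels, which open slowly and have roles in setting excitability. Kcnh2, the ERG channel also known from the heart, was at 5.11 and 4.15 FPKM in Control, 4.28 and 3.74 FPKM in Rem2 KO, 1.75 and 1.60 FPKM in Control_KCl and 1.89 and 1.47 FPKM in Rem2 KO_KCl. It fell 2.58-fold without overlap (-0.99 ± 0.12 (SE), adjusted p = 0.00257). Kcnh1, an EAG channel, was at 2.76 and 2.96 FPKM in Control, 1.64 and 1.66 FPKM in Rem2 KO, 0.933 and 1.00 FPKM in Control_KCl and 1.05 and 0.985 FPKM in Rem2 KO_KCl. It fell (2.27-fold, -0.68 ± 0.11 (SE), adjusted p = 0.00560), and without KCl both Rem2 KO values were below both Control values. Kcnh4, an ELK channel, was at 2.39 and 2.46 FPKM in Control, 3.26 and 2.87 FPKM in Rem2 KO, 5.71 and 4.51 FPKM in Control_KCl and 9.04 and 6.81 FPKM in Rem2 KO_KCl. It rose 2.38-fold (0.98 ± 0.13 (SE), adjusted p = 0.00324). Kcnh3, another ELK channel, was at 6.19 and 6.65 FPKM in Control, 5.85 and 4.70 FPKM in Rem2 KO, 0 and 3.29 FPKM in Control_KCl and 0 and 2.00 FPKM in Rem2 KO_KCl. Its log2 change was -2.81 in libraries numbered 1 and -0.88 in those numbered 2. It was listed at 0 in both KCl libraries numbered 1, where an exact 0 can be a failed estimate, and at 3.29 and 2.00 FPKM in those numbered 2, still below every library without KCl. Its change (-1.85 ± 0.55 (SE), adjusted p = 0.0477) was past the threshold, but not under quantile normalization (adjusted p = 0.0618). Exons of Kcnh3 overlap those of Mcrs1 on the opposite strand. Kcnh5, Kcnh7 and Kcnh8 did not pass (adjusted p = 0.736, 0.178 and 0.0768), though with the block Kcnh7 (0.40, adjusted p = 0.00246) and Kcnh8 (0.34, adjusted p = 0.0102) rose.

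Kcnq3 is a subunit of the M-type channel, which opens slowly near threshold. It was at 5.51 and 7.31 FPKM in Control, 5.07 and 5.505 FPKM in Rem2 KO, 8.80 and 10.3 FPKM in Control_KCl and 6.80 and 7.78 FPKM in Rem2 KO_KCl. KCl was higher within each pair of the same replicate number, although the lowest KCl value lay below the highest value without KCl (1.44-fold, 0.46 ± 0.12 (SE), adjusted p = 0.0302; 0.58 relative to the median gene). Kcnq5 was lower with KCl in all 4 pairs and did not pass (adjusted p = 0.139), while with the block it fell (adjusted p = 0.0113).

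The two-pore channels give a background current. Kcnk2, a mechanically gated and lipid-gated channel and the most abundant of the 6, was at 20.7 and 19.8 FPKM in Control, 20.0 and 19.7 FPKM in Rem2 KO, 16.4 and 19.0 FPKM in Control_KCl and 14.9 and 18.6 FPKM in Rem2 KO_KCl. All 4 KCl values were just below the others, and it did not pass without the block (-0.21 ± 0.09 (SE), adjusted p = 0.143; 0.0436 with the block). Kcnk3, an acid-sensitive channel, was the 1 gene of the class that rose. It was at 3.41 and 2.88 FPKM in Control, 3.58 and 3.11 FPKM in Rem2 KO, 4.24 and 4.59 FPKM in Control_KCl and 6.15 and 5.49 FPKM in Rem2 KO_KCl, with no overlap (1.58-fold, 0.52 ± 0.10 (SE), adjusted p = 0.0129). Kcnk9, its nearest relative, had a change of similar size, 0.48 ± 0.22, that did not pass (adjusted p = 0.157; 0.00283 with the block). Kcnk1 and Kcnk12 did not pass either (adjusted p = 0.140 and 0.164) and fell with the block (0.00188 and 0.0102). Kcnk10 was at 9.11 and 0 FPKM in Control, 8.70 and 0.953 FPKM in Rem2 KO, 10.9 and 1.32 FPKM in Control_KCl and 9.11 and 1.73 FPKM in Rem2 KO_KCl. Its 4 values above 8 FPKM were all from libraries numbered 1 and it was listed at 0 in Control replicate 2, so its KCl change of 0.50 had a standard error of 1.04.

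None of the calcium- or sodium-activated genes passed as a rise. Kcnmb4 was at 46.7 and 48.2 FPKM in Control, 33.6 and 46.5 FPKM in Rem2 KO, 31.1 and 36.4 FPKM in Control_KCl and 30.7 and 30.4 FPKM in Rem2 KO_KCl. KCl values were 30.4 to 36.4 FPKM and the others 33.6 to 48.2 FPKM, so that the states overlapped through Rem2 KO replicate 1 (-0.42 ± 0.12 (SE), adjusted p = 0.0376; -0.30 relative to the median gene). Exons of Kcnmb4 overlap the antisense genes Kcnmb4os1 and Kcnmb4os2. The BK pore Kcnma1 and the other beta subunit, Kcnmb2, had log2 changes of -0.03 ± 0.15 and 0.10 ± 0.10 (adjusted p = 0.916 and 0.511). Of the small-conductance channels, which shape the pause after a spike, Kcnn1 fell from 3.86 ± 0.206 to 2.12 ± 0.376 FPKM (-0.64 ± 0.12 (SE), adjusted p = 0.0103), although not under quantile normalization (0.170). Kcnn2 was at 6.23 and 3.53 FPKM in Control, 6.11 and 4.04 FPKM in Rem2 KO, 11.2 and 7.56 FPKM in Control_KCl and 10.2 and 6.88 FPKM in Rem2 KO_KCl. It was higher in every KCl library, and its change of 0.74 ± 0.24 had adjusted p = 0.0592, or 0.000119 with the block. Kcnn3 did not pass (-0.08, adjusted p = 0.842). The sodium-activated Kcnt2 and the Kcnu1 gene, a relative known from sperm, fell (-0.45 and -0.47, adjusted p = 0.0454 and 0.0280; -0.32 and -0.34 relative to the median gene), though not under quantile normalization (0.488 and 0.128). Kcnt1 did not pass (0.0812; 0.0160 with the block).

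The Kcnab genes encode cytosolic beta subunits of the Kcna channels. Kcnab2 (chr4:152390744-152477549) was at 7.09 and 8.13 FPKM in Control, 8.29 and 9.62 FPKM in Rem2 KO, 11.7 and 12.2 FPKM in Control_KCl and 15.2 and 14.5 FPKM in Rem2 KO_KCl. It rose 1.62-fold without overlap (0.63 ± 0.09 (SE), adjusted p = 0.00362). Kcnab1, which can confer fast inactivation, was at 2.44 and 2.23 FPKM in Control, 2.098 and 1.76 FPKM in Rem2 KO, 0.855 and 0.807 FPKM in Control_KCl and 0.652 and 0.798 FPKM in Rem2 KO_KCl and fell 2.74-fold (-0.81 ± 0.12 (SE), adjusted p = 0.00420). Kcnab3 did not pass (-0.14, adjusted p = 0.631). Kcnab1 thus went from 13.0% to 19.1% of the summed Kcnab level without KCl to 3.6% to 5.8% with KCl, and Kcnab2 from 55.6% to 70.8% to 78.9% to 85.3%. Kcne1l was at 25.4 and 40.5 FPKM in Control, 21.5 and 36.9 FPKM in Rem2 KO, 22.9 and 35.5 FPKM in Control_KCl and 19.8 and 38.1 FPKM in Rem2 KO_KCl, with a mean of 30.1 FPKM over all libraries, the highest of the accessory genes, although Kcnip2 averaged 32.4 ± 2.47 FPKM without KCl against 31.1 ± 9.08 FPKM for Kcne1l (mean ± SD, n = 4). Its values followed the replicate number and not KCl (-0.10 ± 0.31, adjusted p = 0.871). Kcnrg, which hinders the assembly of voltage-gated channels, stayed between 0.926 and 1.56 FPKM (-0.04, adjusted p = 0.901).

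Each genotype was also tested by itself. In Control, 9 genes rose and 13 fell (17.4% of all genes changed, 5.18% rose and 12.2% fell), and in Rem2 KO 10 rose and 9 fell (16.0%, 5.73% and 10.3%). A total of 17 genes passed in both (the share over all genes is not given here). Among them Kcna1, Kcna4, Kcnf1, Kcnh4, Kcnab2, Kcnj3, Kcnj4 and Kcnj6 rose. Kcnc2, Kcnc4, Kcnd1, Kcng1, Kcnh2, Kcnv1, Kcnab1 and Kcnip2 fell. Kcna6, Kcnh1, Kcnj12, Kcnn1 and Kcns1 passed in Control alone and Kcnip1 and Kcnk3 in Rem2 KO alone, which does not show that their changes differ (see the interaction test that follows). The genotypes gave the same sign for 58 of 64 genes (the share over all genes is not given here). With the replicate number as a block the counts were 17 rises and 26 falls in Control (48.6% of all genes changed, 14.4% rose and 34.3% fell) and 17 and 25 in Rem2 KO (47.5%, 16.1% and 31.4%). Rescaling moved the split. With TMM-type scaling there were 12 rises and 9 falls in Control (9.88% and 10.3% of all genes) and 14 and 8 in Rem2 KO (9.52% and 10.4%). Under quantile normalization there were 12 and 2 in Control (17.6% of all genes changed, 7.77% rose and 9.88% fell) and 13 and 3 in Rem2 KO (17.4%, 7.79% and 9.62%). With 2 libraries a group these counts hung on each library. The Control count of 22 went to 3 and 4 without Control replicate 1 and 2 and to 2 without either Control_KCl library. The Rem2 KO count of 19 went to 7 and 3 without Rem2 KO replicate 1 and 2, to 2 and 7 without Rem2 KO_KCl replicate 1 and 2, and to 12 without either Control_KCl library, since all groups share 1 estimate of the spread.

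**Figure D4:**
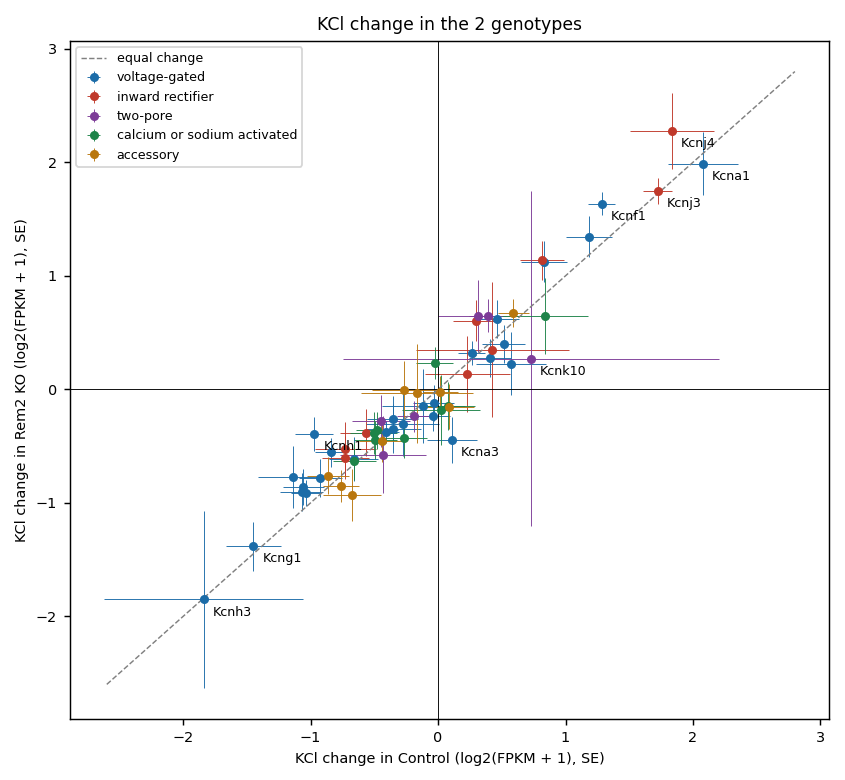
KCl change of 60 of the 64 genes in Rem2 KO (y axis) against that in Control (x axis), both on the log2(FPKM + 1) scale with standard errors; the dashed line marks equal change. Most points lie near that line, from Kcnh3 (-1.84 and -1.85) to Kcnj4 (1.84 and 2.28), with Kcnh1 at -0.97 and -0.39.

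Between genotypes no gene of the 64 passed. Without KCl, with KCl and averaged over both, 0 of 64 had an adjusted p below 0.05 (limma, with and without the block), against 0.0229%, 0.0458% and 0.00764% of all genes without the block and 0.0306%, 0.0764% and 0.428% with it. At an unadjusted p below 0.05 there were 5, 2 and 6 of 64 (1.38%, 1.49% and 2.51% of all genes), and 11, 10 and 17 of 64 with the block (7.66%, 7.52% and 11.3% of all genes). Without KCl 46 of 64 were lower in Rem2 KO, with a median difference of -0.10 against -0.01 over all genes, and with KCl 35 of 64, with a median of -0.02 against 0.02. The shares of all genes lower in Rem2 KO are not given here. In all 4 pairs of equal replicate number 17 genes were lower in Rem2 KO (11.3% of all genes) and 5 were higher (8.94% of all genes). The 5 were Kcna6, Kcnab2, Kcnd3, Kcnh4 and Kcnk3.

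The 3 genes with the smallest p in the averaged comparison were Kcnv1, Kcnip4 and Kcnj3. Kcnv1, a silent subunit, was at 10.6 ± 0.643 FPKM in Control and 7.07 ± 0.707 in Rem2 KO, and at 5.45 ± 0.382 in Control_KCl and 4.48 ± 0.103 in Rem2 KO_KCl (mean ± SD, n = 2; difference -0.38 ± 0.09, limma adjusted p = 1.00, unadjusted p = 0.00580). Both Rem2 KO libraries were below both Control libraries in each KCl state. Kcnip4 was at 6.88 and 8.57 FPKM in Control, 5.71 and 5.73 FPKM in Rem2 KO, 8.21 and 7.38 FPKM in Control_KCl and 5.52 and 5.72 FPKM in Rem2 KO_KCl. Its Rem2 KO values were also below Control in each of the 4 pairs, without overlap within a KCl state (difference -0.39 ± 0.10, limma adjusted p = 1.00, unadjusted p = 0.00750). For Kcnj3, whose values are given above, the difference was -0.29 ± 0.08 (limma adjusted p = 1.00, unadjusted p = 0.0115). With the block the adjusted p-values of the 3 were 0.131, 0.153 and 0.167.

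The test of whether the KCl change differs between genotypes gave 0 of 64 genes (limma, 0.00764% of all genes, and 0 of 64 against 0.0688% with the block), with 1 at an unadjusted p below 0.05 (0.520% of all genes) and 4 with the block (3.45%). The 1 gene without the block was Kcnh1, with a KCl change of -0.97 ± 0.15 in Control and -0.39 ± 0.15 in Rem2 KO (difference 0.58 ± 0.21, limma adjusted p = 1.00, unadjusted p = 0.0341). With KCl its 4 values were within 0.933 and 1.05 FPKM, and the genotypes stood apart without KCl alone. Kcnf1 followed, with 1.28 and 1.64 (difference 0.35 ± 0.15, unadjusted p = 0.0535 by limma). Kcna3, the third, was at 5.52 and 8.35 FPKM in Control, 7.56 and 8.84 FPKM in Rem2 KO, 7.04 and 7.83 FPKM in Control_KCl and 5.44 and 6.04 FPKM in Rem2 KO_KCl. Its change was 0.11 in Control and -0.45 in Rem2 KO (difference -0.56 ± 0.28, unadjusted p = 0.0959 by limma). In 6 genes, Kcna4, Kcnf1, Kcnj4, Kcnj6, Kcnk9 and Kcnmb2, Rem2 KO was below Control in both pairs without KCl and above it in both pairs with KCl (6.11% of all genes), and 3, Kcna3, Kcnn3 and Kcnrg, showed the opposite (2.36% of all genes). None of these 9 passed the interaction test (adjusted p = 1.00 for each in the limma fit).

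Replicate number separated 6 of the 64 genes without overlap over the 8 libraries. Kcnj10, Kcnj16, Kcne1l, Kcnh5 and Kcnn3 were higher in the 4 libraries numbered 2 (5 of 64, against 20.3% of all genes) and Kcnk10 in those numbered 1 (1 of 64, against 5.81%). Kcnj10 was at 8.47 to 11.6 FPKM in libraries numbered 1 and 17.2 to 25.3 FPKM in those numbered 2, and Kcne1l at 19.8 to 25.4 and 35.5 to 40.5 FPKM. The summed level of 6 astrocyte markers was 268 to 297 FPKM in libraries numbered 1 and 351 to 427 FPKM in those numbered 2. Gfap, Slc1a3 and Aldh1l1 were higher in libraries numbered 2. Slc1a2 (16.8 to 17.8 and 16.5 to 17.7 FPKM) and Gja1 (31.6 to 34.1 and 33.1 to 36.5 FPKM) overlapped, and S100b was lower there (1.03 to 1.45 and 0.295 to 0.471 FPKM). The part of astrocyte content in the difference of Kcnj10 was not tested. The KCl change had the same sign in both replicate numbers for 60 of 64 genes (the share over all genes is not given here) and for 36 of the 36 that passed. Since the 36 were called on the change over both replicate numbers together, their equal signs largely follow from the call. Fitted apart, libraries numbered 1 gave 17 rises and 26 falls of 60 genes (16.0% and 34.0% of all genes) and those numbered 2 gave 17 and 29 of 62 (17.6% and 40.2%).

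**Figure D5:**
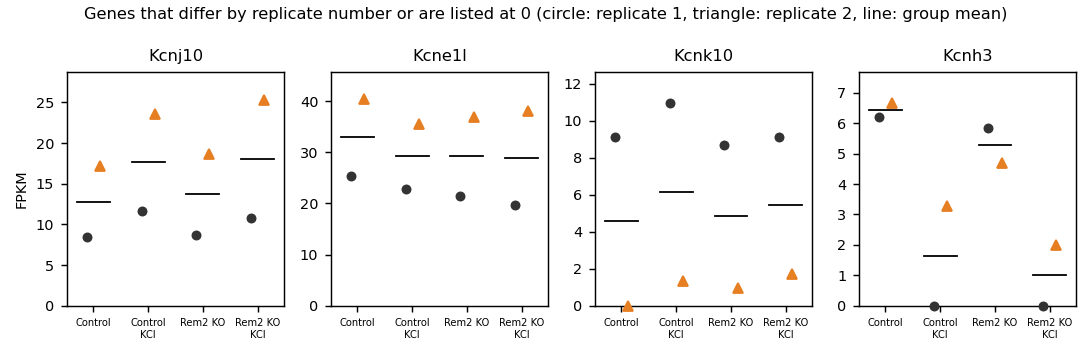
FPKM in each library (y axis, from 0) by group for 4 genes; circles are replicate 1, triangles replicate 2 and lines group means. Kcnj10 and Kcne1l are higher in replicate 2 of every group, Kcnk10 is at 8.70 to 10.9 FPKM in replicates 1 and at 0 to 1.73 FPKM in replicates 2, and Kcnh3 is listed at 0 in the 2 KCl libraries numbered 1.

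Several genes have more than 1 RefSeq transcript, 24 of the 64, and 81 Kcn transcripts reached 1 FPKM in 2 libraries. Of these 10 rose and 15 fell with KCl averaged over both genotypes (22.5% of all 16736 transcripts, 7.83% rises and 14.7% falls). The count fell to 14, 11, 13 and 15 without Control replicate 1, Control_KCl replicate 1, Control_KCl replicate 2 and Rem2 KO replicate 2, and with the block it was 44. Estimates for transcripts of 1 gene differed in size or sign, but no pair given here passed in opposite directions. For Kcnab1, 1 transcript fell (-1.23 ± 0.22, limma adjusted p = 0.0142), and another, too low to be tested, was at 0 in the 4 libraries without KCl and at 0.195 to 0.742 FPKM with KCl. The 2 transcripts of Kcnc1 had changes of -0.39 ± 0.47 and 0.40 ± 0.13, neither past the threshold (limma adjusted p = 0.644 and 0.0737). The first was listed at 0 in Rem2 KO_KCl replicate 2, on which its negative sign rests. In the other pairs of equal replicate number it was higher with KCl (2.97 against 3.09 and 2.28 against 2.58 FPKM in Control, 2.92 against 3.45 FPKM in Rem2 KO). The 2 tested transcripts of Kcnip1 had changes of -0.87 ± 0.19 and -0.70 ± 0.25, of which the first passed (limma adjusted p = 0.0272 and 0.106), and its other 2 were at 0. These genes were chosen after their values were seen. How Cufflinks divides reads between transcripts of a gene adds error to these values that the sums over a gene do not carry.

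Of 29 partners of potassium channels outside the Kcn genes 24 were tested. With KCl 3 rose and 7 fell, against 33.4% of all genes, and none differed between genotypes. Rgs7bp, an anchor of the RGS protein that speeds the closing of G protein-gated channels, was at 7.27 and 7.64 FPKM in Control, 5.43 and 6.39 FPKM in Rem2 KO, 17.998 and 20.3 FPKM in Control_KCl and 12.8 and 15.0 FPKM in Rem2 KO_KCl. It rose without overlap (1.18 ± 0.10 (SE), adjusted p = 0.00101), as did the scaffold Dlg1 (0.60, adjusted p = 0.0133) and Lgi1, a secreted ligand of Adam22 in Kcna complexes (0.51, adjusted p = 0.0124). Cntn2, an axonal adhesion molecule of Kcna clusters, was at 11.8 and 16.0 FPKM in Control, 10.0 and 13.0 FPKM in Rem2 KO, 5.00 and 5.20 FPKM in Control_KCl and 3.54 and 3.82 FPKM in Rem2 KO_KCl and fell (-1.34 ± 0.13 (SE), adjusted p = 0.00149). Adam22 fell as well (-0.79, adjusted p = 0.00129), and so did the Kcnd partners Dpp6 and Dpp10 (-0.38 and -0.39, or -0.26 and -0.26 relative to the median gene, adjusted p = 0.0113 and 0.0356, with Dpp10 at 0.0564 under quantile normalization). Dlg4, Vapa, Vapb, Amigo1, Akap5 and Rest did not pass, with log2 changes from -0.15 to 0.19.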

How the data were processed

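Per the labels' protocols, 500 ng of total RNA went into each of 8 libraries, prepared with a TruSeq kit. The authors aligned reads with TopHat to mm10 and computed FPKM with Cufflinks, per the submitters' processing notes (versions, strand use and annotation are not given in the sources used here), and, per the file headers, deposited an FPKM value in each library for every RefSeq transcript listed. Of 34353 accessions 34015 were matched to genes in RefSeq tables (GRCm38.p6), and those unmatched held 0.313% to 0.502% of a library's FPKM. Values were summed per gene, 302 genes were left out because an accession was repeated or a value missing (no Kcn gene among them), and 13089 of 23830 genes with at least 1 FPKM in at least 2 libraries were tested. Without strand use, reads of genes whose exons overlap on opposite strands (21 of the 64 Kcn genes) cannot be told apart. FPKM carry no counts, so no counting intervals are given.

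Groups came from the library titles. limma 3.58.1 (R 4.3.3) was fitted to log2(FPKM + 1) with 4 group means (4 residual degrees of freedom) and a variance trend, and p-values were adjusted (Benjamini-Hochberg) over all genes, with a threshold of 0.05 for 7 contrasts. The fit was tried on simulated data with independent noise in each library and no replicate effect. That trial therefore says nothing on how the fit deals with the replicate differences of these data. Deviations of libraries with the same replicate number correlated at 0.708 to 0.783 in all 6 pairs of groups, so the numbers were taken as pairing the libraries, and fits with the replicate number as a block (3 residual degrees of freedom) were the alternative to the planned fit. The series design calls the replicates biological, with no more on their source.

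The genes and lists were chosen with earlier results of these data known. The results of some kept members are not reported here, although counts, medians and tests include them. The other members were named, with values in every library for up to 12 rises and 12 falls by size, the most abundant gene of each class, and the 3 smallest p-values between genotypes and in the interaction. Other scalings (TMM-type, upper quartile, quantile), pseudocount 0.1, filters (none, 5 FPKM), no variance trend, and leaving out each library were tried. More alternatives (the block with quantile normalization, and each replicate number fitted alone) were chosen after seeing the data. Fragment numbers were estimated from the smallest steps between values of long transcripts. Promoter windows came from RefSeq and exon overlaps from GENCODE on GRCm38.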

Additional observations from a re-analysis of the deposited data

How the results depend on the processing

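The direction of each of the called KCl changes was the same under all alternatives (704 gene and setting pairs over 36 genes), with 591 on the same side of the threshold and 113 no longer past it. Since the alternatives refit the libraries on which the 36 genes were called, the equal directions largely follow from the call. The cause of the lost calls was not tested. With the replicate block the counts of Kcn genes changed by KCl were 43 in Control and 42 in Rem2 KO, against 22 and 19 without it, and 44 Kcn transcripts changed against 25. Of all genes 48.6% and 47.5% changed with the block, against 17.4% and 16.0% without it, so the higher counts were general. Averaged over both genotypes the block gave 51 against 36 (62.0% against 33.4% of all genes), and it changed no genotype or interaction call of a Kcn gene. With the block and quantile normalization together, added after seeing the data, there were 39 in Control and 33 in Rem2 KO. Quantile normalization alone gave 14 in Control (17.6% of all genes), and a filter of 5 FPKM, which tests 35 genes, gave 12 in Control, 21 averaged and 14 transcripts. Fitting only the 4 libraries compared gave 6 in Control and 0 in Rem2 KO. Libraries numbered 1 alone, also added later, gave 10 transcripts. Leaving out 1 library gave 2 to 18 genes in Control, 2 to 15 in Rem2 KO, 23 to 28 averaged and 11 to 20 transcripts, and 0 throughout between genotypes and in the interaction. Counts of such refits with no share of all genes beside them, here or above, describe only how the calls depend on the processing. Kcnh3 lost the call under pseudocount 0.1, no filter, no variance trend, TMM-type scaling and quantile normalization, and Kcnmb4 with TMM-type scaling and no filter. Libraries numbered 2 had about 2 times the fragments of those numbered 1, so values near 1 FPKM are less precise in the latter.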

Other observations

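The 4 non-coding genes whose symbols start with Kcn were not counted among the 64. Kcnmb4os2, antisense to Kcnmb4, was at 17.2 and 3.90 FPKM in Control, 13.0 and 5.25 FPKM in Rem2 KO, 12.8 and 4.94 FPKM in Control_KCl and 11.2 and 3.99 FPKM in Rem2 KO_KCl. All 4 values from libraries numbered 1 were above those from libraries numbered 2, and the values of Kcnmb4 itself did not divide this way. Kcnq1ot1, a long RNA of the imprinted Kcnq1 locus, was at 0.298 to 0.351 FPKM without KCl and 0.465 to 0.590 FPKM with KCl, while Kcnq1 was listed at 0 in all 8 libraries. Kcnd3os and Kcnmb4os1 were listed at 0 in all 8 libraries.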
